A study of Mus musculus with 8 samples.

Results

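The endothelin and nitric oxide (NO) genes are a set of 10: the endothelin peptides Edn1, Edn2 and Edn3, their receptors Ednra and Ednrb, the endothelin-converting enzymes Ece1 and Ece2, and the NO synthases Nos1, Nos2 and Nos3. They were chosen by gene symbol, with earlier results of these data known, as were the gene lists used below. A gene with several rows on the array was to be represented by its brightest. A named row was found for 8 of the 10, 1 row each, among 19505 named genes. Ednra and Ece2 were not analysed here. The older kidneys came from 4 NZBWF1 mice aged 28 weeks (replicates 6, 7, 8 and 9), and the younger ones from 4 NZBWF1 mice aged 8 weeks (replicates 1, 2, 3 and 4), with 1 Clariom S array per sample. NZBWF1 mice are F1 offspring of a cross between New Zealand Black and New Zealand White parents and a spontaneous model of lupus nephritis. The labels name no treatment, sex or disease score, so age is the only described difference. RNA came from whole kidney, in which fewer cells of a type and less RNA per cell cannot be told apart.

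Endothelins are made as large precursors that proprotein convertases trim and the membrane proteases ECE-1 and ECE-2 cut to the active peptide. The ETA receptor, encoded by Ednra, mediates contraction of smooth muscle, while the ETB receptor, encoded by Ednrb, is found on endothelium, where it promotes NO release and clears endothelin, and on the collecting duct, where it lowers sodium reabsorption. NO synthases convert arginine to NO and citrulline. Endothelial Nos3 relaxes vessels through soluble guanylate cyclase, neuronal Nos1 is known in the kidney from the macula densa, and inducible Nos2 is switched on by cytokines in macrophages and other cells.

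Values are the authors' RMA values (robust multi-array averaging), taken to be on the log2 scale. The arrays of each age did not all resemble each other. The 28-week replicate 7 had a mean correlation across probes of 0.9858 with the other 28-week arrays and 0.9897 with the 8-week arrays. The results of Edn1, the ligand pairs and the gene lists are therefore given with and without it. Leaving out the older array most like the younger ones favours larger age differences. P-values and counts without it are descriptions and do not show an age difference. Kidney markers were bright in both groups: Umod, the uromodulin gene of the thick ascending limb, averaged 18.59 ± 0.12 at 28 weeks and 18.37 ± 0.10 at 8 weeks, and the proximal tubule receptor gene Lrp2 averaged 18.04 ± 0.23 at 28 weeks and 18.13 ± 0.12 at 8 weeks (SD, n = 4 each). With 4 arrays at each age, their number sets the precision. Nothing in the labels beyond the count of mice says how the samples were collected. The limma p-values set the age difference against the variation between arrays of the same age. Permutation p-values rank the observed arrangement of the arrays among all possible ones.

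The promoter windows of Edn1 and Ednrb are shown because this ligand and this receptor had the largest positive age differences of the set. Each window, from RefSeq on build GRCm38.p6, runs from 250 bases before to 50 bases after an annotated start, and capitals mark matches to the motifs named after the sequences. The Edn1 window is chr13:42301226-42301525 on the plus strand, and the Ednrb window is chr14:103843652-103843951 on the minus strand.
Edn1: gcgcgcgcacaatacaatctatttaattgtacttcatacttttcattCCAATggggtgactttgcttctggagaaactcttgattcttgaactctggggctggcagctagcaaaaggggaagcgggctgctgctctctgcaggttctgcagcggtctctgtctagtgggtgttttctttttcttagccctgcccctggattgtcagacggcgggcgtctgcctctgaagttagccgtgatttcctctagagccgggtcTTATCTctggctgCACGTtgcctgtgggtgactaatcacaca
Ednrb: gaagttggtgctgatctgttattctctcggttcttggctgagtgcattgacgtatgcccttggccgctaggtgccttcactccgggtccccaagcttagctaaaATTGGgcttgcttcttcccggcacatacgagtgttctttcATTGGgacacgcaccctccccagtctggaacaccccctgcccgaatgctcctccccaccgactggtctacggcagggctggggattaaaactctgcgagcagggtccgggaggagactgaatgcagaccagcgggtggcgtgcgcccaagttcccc
Windows were found for 6 of the 8 measured genes, 9 windows in all because Ece1 has 4. Motifs were searched on both strands. In the Edn1 window a GATA motif (AGATAA) matched bases 259 to 264, a CCAAT box (CCAAT) bases 48 to 52, and the core of the hypoxia element (ACGTG) bases 272 to 276. The GATA and hypoxia matches were on the reverse strand, beginning at positions 9 and 22 after the annotated start. Over all 32851 windows of this length, 11.2% held the GATA motif, 37.4% the CCAAT box and 19.6% the hypoxia core. The Ednrb window held CCAAT at bases 105 to 109 and 145 to 149, both on the reverse strand. No match to the AP-1 motif (TGANTCA, in 7.81% of all windows) or to TATAAA (13.6%) lay in any of the 9. Of the others searched, the GC box GGGCGG (35.7% of all windows) and the E-box CACGTG (7.15%, and a longer form of ACGTG) were found only in windows of Ece1. A match describes letters, and binding was not measured. Elements with other letters, or outside these windows, were not searched. The lack of a match therefore does not show that a promoter lacks the element.

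None of the 8 genes differed between the ages at the threshold, but Edn1 had values far above the 8-week range in 3 of the 4 older mice. Ece1 had the largest negative difference, and the 3 NO synthase genes differed little. Tested with limma across all 22206 probes, 0 of the 8 passed an adjusted p of 0.05, where 0.968% of all probes did (0.446% higher and 0.522% lower at 28 weeks). At an unadjusted p under 0.05 there were 2 of 8, Edn1 and Ece1, beside 15% of all probes. Exact permutation tests over the 70 arrangements of the arrays gave 0 of 8 under 0.05, and the smallest p they allow is 0.0286. The values of the ages overlapped in all 8 genes, while they were separate in 8.71% of probes. The mean was higher at 28 weeks for 4 of the 8 and lower for 4, where 48.7% of all probes were higher, and the median log2 difference of the 8 was -0.02, against -0.01 over all probes.

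**Figure D1:**
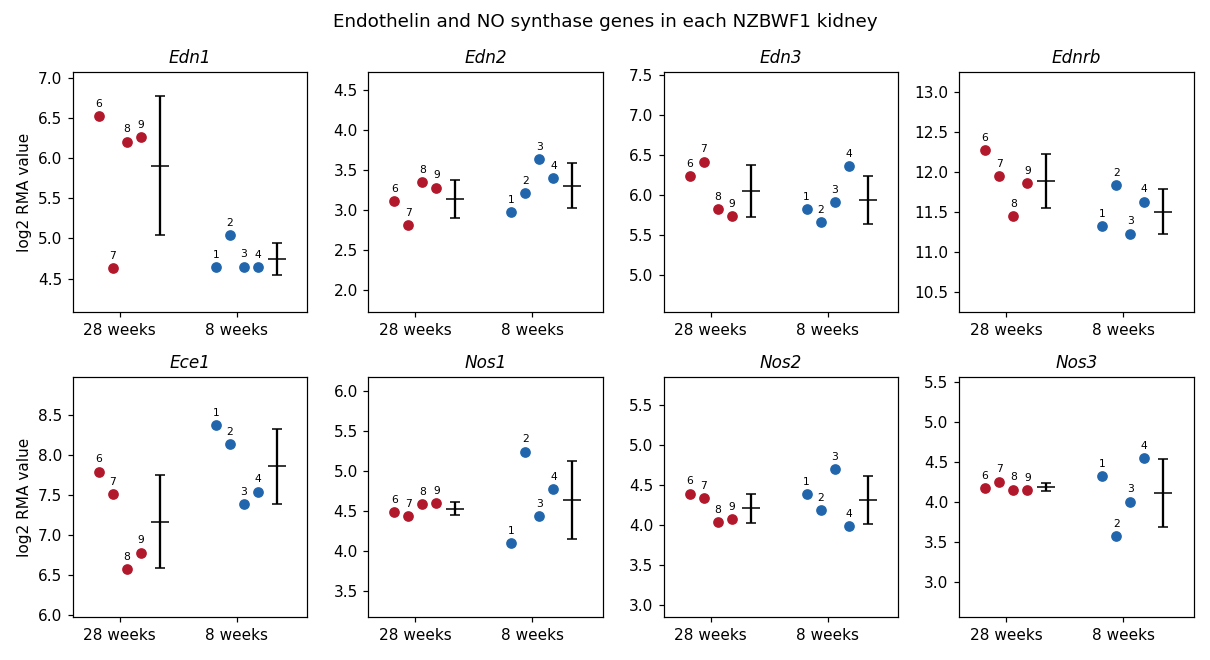
Log2 RMA value (y axis, each panel spanning the same log2 width) of the 8 measured genes in each kidney, with 28-week mice in red left of 8-week mice in blue. Digits are replicate numbers, and bars are mean and SD of 4 arrays. Edn1 lay between 6.21 and 6.53 in 28-week replicates 6, 8 and 9 and at 4.63 in replicate 7.

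Edn1, the gene of endothelin-1, the main vasoconstrictor endothelin, was 6.53, 4.63, 6.21 and 6.27 in 28-week replicates 6, 7, 8 and 9, and 4.64, 5.04, 4.65 and 4.64 in 8-week replicates 1, 2, 3 and 4. Replicates 6, 8 and 9 stood above every 8-week mouse, and replicate 7 was marginally under the lowest of them. The mean was 5.91 ± 0.86 at 28 weeks and 4.74 ± 0.20 at 8 weeks, a log2 difference of 1.17 (SE 0.36, 2.25-fold higher, 95% interval 1.29-fold to 3.92-fold, adjusted p = 0.150). Without 28-week replicate 7 the log2 difference was 1.59 with an interval of 1.21 to 1.98 (3.02-fold, adjusted p = 0.000772), and Edn1 was then the 1 gene of the set past the threshold. In that fit 5.57% of all probes passed. With any of the other 7 arrays left out in turn the difference lay between 0.96 and 1.27 and the adjusted p between 0.216 and 0.357.

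Edn2, which encodes a closely related peptide, was read by a dim probe. It was 3.11, 2.81, 3.35 and 3.28 in 28-week replicates 6 to 9, and 2.97, 3.21, 3.64 and 3.40 in 8-week replicates 1 to 4. Both ages stayed close to the lowest value on the arrays, 2.31, and they overlapped. The log2 difference was -0.17 with a 95% interval of -0.58 to 0.24 (adjusted p = 0.757). Edn3, whose peptide prefers the ETB receptor, was 6.24, 6.42, 5.83 and 5.74 in 28-week replicates 6 to 9, and 5.83, 5.66, 5.91 and 6.36 in 8-week replicates 1 to 4. Its highest value was in 28-week replicate 7, the older mouse in which Edn1 was low. The log2 difference of Edn3 was 0.12 with an interval of -0.34 to 0.58 (adjusted p = 0.867), and its sign turned to -0.0033 without 28-week replicate 7.

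Whether Edn1 moved apart from the other ligands was tested on differences taken within each array. The value of Edn1 minus that of Edn2 was 3.42, 1.82, 2.86 and 2.99 in 28-week replicates 6 to 9, and 1.67, 1.83, 1.01 and 1.24 in 8-week replicates 1 to 4. Replicate 7 was inside the 8-week range and the other 28-week mice were above it. The change between ages was 1.34 on the log2 scale (exact two-sided permutation p = 0.0571, adjusted p = 0.343 over 6 pairs). For Edn1 minus Edn3 the change was 1.05 (exact permutation p = 0.143, adjusted p = 0.429), and for Edn2 minus Edn3 it was -0.28 (exact permutation p = 0.4, adjusted p = 0.8). With 4 against 4 arrays the ligand pairs alone could not pass: had all 3 ligand pairs reached the smallest p of 0.0286, the adjusted p over 6 pairs would be 0.0571. Without 28-week replicate 7 the change was 1.65 for Edn1 minus Edn2 and 1.598 for Edn1 minus Edn3, each at the smallest exact permutation p that 3 against 4 arrays allow (p = 0.0286, adjusted p = 0.0857).

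Ednrb, which encodes the ETB receptor, was 12.27, 11.95, 11.45 and 11.86 in 28-week replicates 6 to 9, and 11.32, 11.84, 11.23 and 11.63 in 8-week replicates 1 to 4. All the 28-week mice but replicate 8 were above the highest 8-week value, replicate 9 only narrowly. The mean was 11.88 ± 0.34 at 28 weeks and 11.505 ± 0.28 at 8 weeks, a log2 difference of 0.38 with a 95% interval of -0.08 to 0.83 (1.3-fold, adjusted p = 0.444). In contrast to Edn1, its value in 28-week replicate 7 was above the 8-week range, and its log2 difference was 0.355 without that mouse.

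Ece1, which encodes the main endothelin-converting enzyme, was 7.79, 7.51, 6.57 and 6.78 in 28-week replicates 6 to 9, and 8.37, 8.13, 7.39 and 7.54 in 8-week replicates 1 to 4. Replicates 8 and 9 of the older mice had the lowest values, and all 4 lay under the 8-week mean, but replicates 6 and 7 were within the 8-week range. The mean was 7.16 ± 0.58 at 28 weeks and 7.86 ± 0.47 at 8 weeks, a log2 difference of -0.695 (SE 0.31, 95% interval -1.38 to -0.0057, 1.62-fold lower, adjusted p = 0.329). It stayed negative in every fit that left out 1 array, from -0.90 to -0.50, with an adjusted p of 0.251 or more. Among the older mice the order of Ece1 was unlike that of Edn1: replicate 6 had the highest value of both genes, whereas replicates 8 and 9, high in Edn1, were lowest in Ece1.

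**Figure D2:**
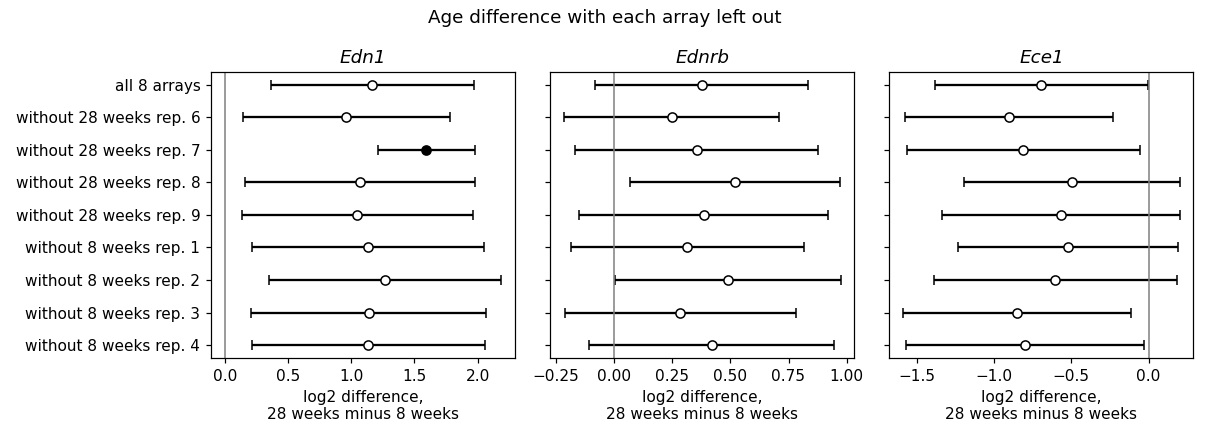
Log2 difference (28 weeks minus 8 weeks, x axis) of Edn1, Ednrb and Ece1 with 95% limma intervals, for all 8 arrays and with each array left out (rows). The single filled point, Edn1 without 28-week replicate 7 at 1.59, is the 1 estimate with an adjusted p under 0.05.

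Nos1, the neuronal form of NO synthase, was 4.48, 4.44, 4.59 and 4.60 in 28-week replicates 6 to 9, and 4.10, 5.24, 4.44 and 4.77 in 8-week replicates 1 to 4. The older mice all fell inside the wider 8-week range. The log2 difference was -0.11 with a 95% interval of -0.61 to 0.39 (adjusted p = 0.889). Nos2, the inducible form, was 4.39, 4.33, 4.03 and 4.07 in 28-week replicates 6 to 9, and 4.38, 4.18, 4.70 and 3.99 in 8-week replicates 1 to 4. No older mouse was outside the 8-week range, and the log2 difference was -0.11 with an interval of -0.51 to 0.29 (adjusted p = 0.858). Nos3, the endothelial form, was 4.17, 4.25, 4.15 and 4.14 in 28-week replicates 6 to 9, and 4.32, 3.57, 4.00 and 4.54 in 8-week replicates 1 to 4. Its older mice lay between 4.14 and 4.25, again inside the 8-week range. The log2 difference of Nos3 was 0.07 with an interval of -0.38 to 0.52 (adjusted p = 0.922).

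These intervals bound changes of probe signal, not of transcript. A signal rise of Nos2 above 1.22-fold, of Nos1 above 1.31-fold or of Nos3 above 1.43-fold lay outside the 95% interval. RMA compresses folds at low signal, so a change of transcript could be larger than these bounds. The mean values of Nos2 and Nos3, like that of Edn2, were among the dimmest of all probes (below the 25th percentile). Nos1 was little brighter, at the 29.5 percentile. A low value in these genes does not show absence. The SD of Nos1 was 0.08 at 28 weeks and 0.49 at 8 weeks, and that of Nos3 was 0.05 at 28 weeks and 0.42 at 8 weeks. Edn1 went the other way, with an SD of 0.86 at 28 weeks and 0.20 at 8 weeks. The SD was larger at 28 weeks in 4 of the 8 genes. Within arrays, the changes of Nos1 minus Nos2, Nos1 minus Nos3 and Nos2 minus Nos3 were -0.0025, -0.18 and -0.18, with exact permutation p of 1, 0.829 and 0.6.

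**Figure D3:**
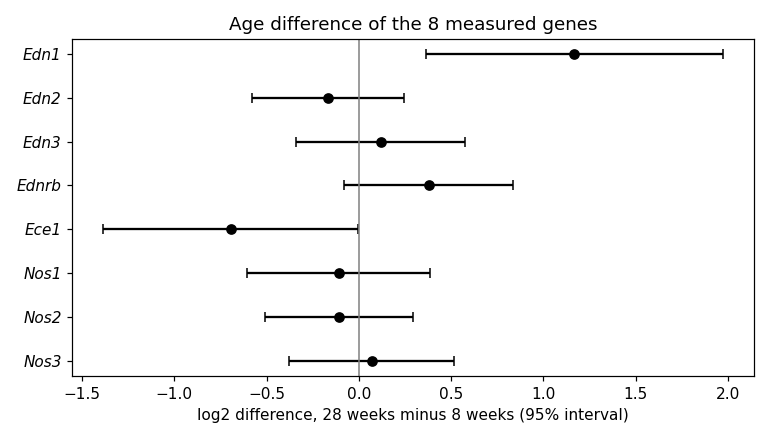
Log2 difference (28 weeks minus 8 weeks, x axis) of the 8 measured genes, with 95% intervals from limma on 4 against 4 arrays. The interval of Edn1 (0.36 to 1.97) lay above 0 and that of Ece1 (-1.38 to -0.0057) just under it, before adjustment, and the others crossed 0.

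Genes with the most similar profiles were sought for the 4 members that spanned at least 1 log2 unit over the 8 arrays, by the root mean square difference between centred profiles among 18543 other named genes. These are descriptions over 8 arrays that share the same samples. Closest to Edn1 were Anln at 0.117, a gene of the actin-binding cytokinesis protein anillin, then Ifi208 at 0.146, of the interferon-inducible p200 family, and Themis2 at 0.147, a signalling gene of B cells and macrophages. Anln was 6.23, 4.37, 6.09 and 6.17 in 28-week replicates 6 to 9, and 4.49, 4.61, 4.59 and 4.37 in 8-week replicates 1 to 4. It showed the same low value in replicate 7. Closest to Ednrb were Gpr4 at 0.108, a proton-sensing receptor gene, Tlr6 at 0.123 and the choline transporter gene Slc44a1 at 0.125. Gpr4 was 6.81, 6.43, 5.95 and 6.43 in 28-week replicates 6 to 9, and 5.95, 6.30, 6.03 and 6.31 in 8-week replicates 1 to 4, with replicate 8 low among the older mice as for Ednrb. Closest to Ece1 were Fn3k at 0.178, a kinase gene of glycated proteins, Btbd2 at 0.194 and Magix at 0.215. Closest to Nos1 were the hair keratin-associated gene Krtap27-1 at 0.0899, the olfactory receptor gene Olfr1277 at 0.105 and Rap1gds1 at 0.109, which like Nos1 were highest in 8-week replicate 2 and lowest in 8-week replicate 1.

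List counts below are to be read beside the shares of all probes. These were 0.446% rising and 0.522% falling at the threshold, 15% at an unadjusted p under 0.05 and 48.7% with a higher mean. Without replicate 7, 5.57% passed in either direction. Genes around the endothelin peptides differed little as a list. Of 10 genes for processing and breakdown of endothelin and related peptides, 0 passed the threshold by limma (2 at an unadjusted p under 0.05), and the median log2 difference was -0.07. Without replicate 7 the count past the threshold was also 0. The smallest p was that of Pcsk6, a proprotein convertase gene, at 9.34, 9.05, 8.02 and 8.51 in 28-week replicates 6 to 9 and 7.95, 8.04, 7.05 and 6.64 in 8-week replicates 1 to 4 (log2 difference 1.31, adjusted p = 0.120). All but replicate 8 of the older mice were above the 8-week range. Another convertase gene, Pcsk5, had a log2 difference of -0.49 (adjusted p = 0.188). Furin and the neprilysin gene Mme, whose product degrades endothelin-1, had log2 differences of -0.01 and -0.045.

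Downstream of the endothelin receptors, 1 of 16 coupling genes rose and 0 fell, beside 0.446% of all probes that rose and 0.522% that fell. Gna13, a G protein alpha subunit gene, was 10.26, 10.13, 10.30 and 10.56 in 28-week replicates 6 to 9 and 9.55, 9.64, 9.69 and 9.44 in 8-week replicates 1 to 4 (1.66-fold, adjusted p = 0.0466). The ages did not overlap, in replicate 7 as in the others, but the call held in 1 of the 8 fits that left out an array, the one without replicate 7, with adjusted p up to 0.155. Without replicate 7, 2 of the 16 were higher and 1 lower. With all arrays, 7 of the 16 had an unadjusted limma p under 0.05, beside 15% of all probes. The median log2 difference of these genes was 0.145.

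Of 15 regulators of NO synthase, 1 rose and 1 fell, beside 0.446% and 0.522% of all probes. At an unadjusted limma p under 0.05 there were 4 of the 15, beside 15% of all probes. The median log2 difference was 0.04. Without replicate 7 the counts past the threshold were 1 and 1 too, beside 5.57% of all probes in either direction. Hsp90aa1, whose chaperone product binds endothelial NO synthase, was 15.05, 15.25, 15.20 and 15.20 in 28-week replicates 6 to 9, and 14.20, 14.30, 14.37 and 14.51 in 8-week replicates 1 to 4. Every older mouse was above every younger one (1.78-fold, adjusted p = 0.0300). Agxt2, an aminotransferase gene whose enzyme breaks down the NO synthase inhibitor dimethylarginine, was 8.35, 9.07, 8.86 and 8.49 in 28-week replicates 6 to 9, and 10.30, 10.28, 9.68 and 9.69 in 8-week replicates 1 to 4. It fell 2.45-fold without overlap (adjusted p = 0.0330). Each of these calls also held only without replicate 7 among the 8 fits that left out an array, with adjusted p up to 0.109 for Hsp90aa1 and 0.128 for Agxt2. Ddah1 and Ddah2, the genes of the other enzymes that remove that inhibitor, had log2 differences of -0.24 and 0.035 (adjusted p = 0.512 and 0.965).

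Of 12 genes that supply arginine and the cofactor tetrahydrobiopterin, 0 passed the threshold by limma (4 at an unadjusted p under 0.05), and the median log2 difference was -0.14. Without replicate 7, 1 of the 12 was higher and 2 were lower. Asl, whose enzyme forms arginine from argininosuccinate, was 11.73, 11.53, 10.85 and 11.49 in 28-week replicates 6 to 9, and 12.32, 12.69, 12.26 and 12.19 in 8-week replicates 1 to 4. The ages did not overlap, yet the adjusted p was 0.0619. The arginine transporter gene Slc7a1 was 6.85, 6.26, 6.74 and 6.57 in 28-week replicates 6 to 9 and 6.20, 5.89, 5.66 and 5.45 in 8-week replicates 1 to 4, also without overlap (log2 difference 0.805, adjusted p = 0.0883). Gch1, the rate-limiting enzyme gene of tetrahydrobiopterin synthesis, had a log2 difference of 0.34 (adjusted p = 0.383).

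Among 18 genes of cyclic GMP signalling 0 passed by limma (5 at an unadjusted p under 0.05), with a median log2 difference of 0.15. Without replicate 7, 1 of the 18 passed, higher at 28 weeks. The smallest p were those of Vasp, an actin regulator gene whose protein is phosphorylated by cyclic GMP-dependent kinase, with a log2 difference of 1.085 (adjusted p = 0.0699), and of the phosphodiesterase gene Pde2a, with 0.55 (adjusted p = 0.149). Gucy1b1, the beta subunit gene of the NO receptor guanylate cyclase, averaged 8.145 ± 0.25 at 28 weeks and 8.13 ± 0.37 at 8 weeks.

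Cytokines, receptors and factors of the signalling that induces Nos2 in macrophages had higher means at 28 weeks in 16 of 16 measured genes. The mean of Nos2 was not higher, but its probe was dim (below the 25th percentile), which limits this contrast. The 16 include Nfkbia, the gene of an NF-kappa-B inhibitor. The median log2 difference of these genes was 0.83, against -0.01 over all probes, and 0 passed the threshold by limma (12 at an unadjusted p under 0.05). Without 28-week replicate 7, 11 of the 16 passed, all higher, beside 5.57% of all probes in either direction. Rela and Tnfrsf1a, which encode an NF-kappa-B subunit and the main TNF receptor, had the smallest p, with log2 differences of 0.78 and 1.18 (adjusted p = 0.0752 and 0.0776). The score of this list, which averages over its genes the log2 difference from the mean of the younger mice, gave 1.13, 0.185, 1.17 and 1.04 in 28-week replicates 6 to 9, against -0.0791 to 0.0522 at 8 weeks. The interferon-gamma gene Ifng itself averaged 5.14 ± 0.17 at 28 weeks and 5.13 ± 0.13 at 8 weeks.

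**Figure D4:**
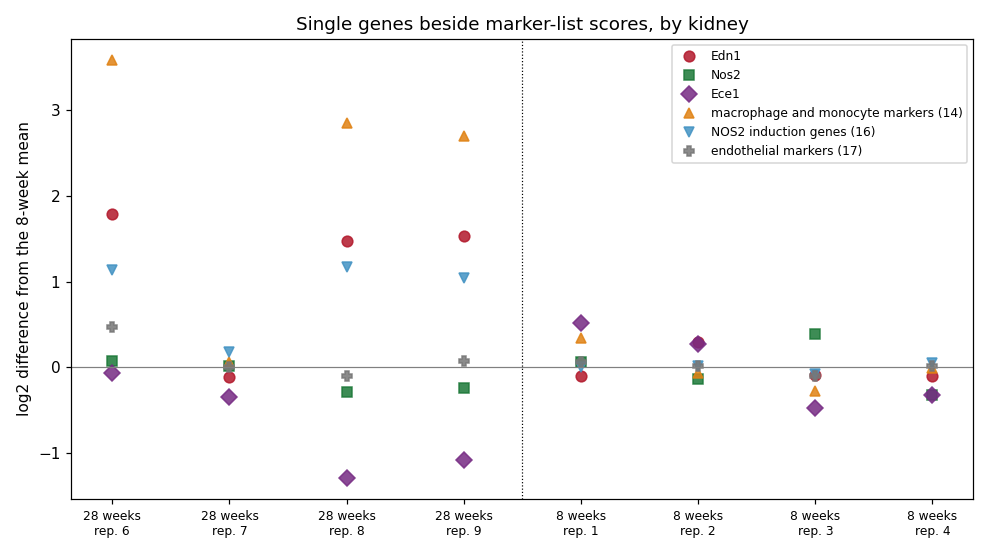
Log2 difference from the 8-week mean (y axis) of Edn1, Nos2 and Ece1 and of 3 marker-list scores, by kidney (x axis, 28-week mice left of the dotted line). In 28-week replicates 6, 8 and 9 Edn1 and the macrophage and NOS2 induction scores were high together, and in replicate 7 all 3 were near 0. Nos2, read by a dim probe, stayed near 0 throughout.

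Markers of cells that can hold these transcripts are given beside them. All 14 measured macrophage and monocyte markers had a higher mean at 28 weeks, with 0 past the threshold by limma. At an unadjusted p under 0.05 there were 13, beside 15% of all probes. Without 28-week replicate 7, 13 passed, beside 5.57% of all probes. Their score was 3.58, 0.068, 2.85 and 2.69 in 28-week replicates 6 to 9, against -0.279 to 0.345 at 8 weeks. Lyz2 and C1qa, of lysozyme and a complement subunit made by macrophages, had log2 differences of 4.54 and 2.525 (adjusted p = 0.0607 and 0.0901). The older mice with a high score were those with high Edn1, and the part of these cells in the Edn1 values was not tested. Neutrophil markers, with 0 of 9 past the threshold by limma and 1 at an unadjusted p under 0.05, scored 0.133 to 0.306 at 28 weeks and -0.142 to 0.193 at 8 weeks. Their defining granule gene Ngp was dim, at 3.43 ± 0.19 at 28 weeks and 3.27 ± 0.13 at 8 weeks, and Csf3r had a log2 difference of 1.3 (adjusted p = 0.0853). Without replicate 7, 1 of the 9 passed, higher at 28 weeks.

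Endothelial markers, of cells known to express Nos3 and, among other kidney cells, Edn1, had 0 of 17 past the threshold by limma (3 at an unadjusted p under 0.05). Their median log2 difference was 0.07. Their score was 0.474, 0, -0.0976 and 0.0776 in 28-week replicates 6 to 9, against -0.0941 to 0.0688 at 8 weeks. The part of endothelial cells in the Edn1 values was not tested. Without replicate 7, 1 of the 17 passed, higher at 28 weeks. Cdh5, the endothelial cadherin gene, and Kdr, a VEGF receptor gene, had log2 differences of 0.675 and -0.4 (adjusted p = 0.166 and 0.184). Mural and mesangial markers scored -0.217 to 0.908 at 28 weeks and -0.364 to 0.711 at 8 weeks, with 0 of 11 past the threshold by limma and 3 at an unadjusted p under 0.05. Without replicate 7, 2 of these 11 passed, both higher. Rgs5 and Mcam had the smallest p there, with log2 differences of 0.76 and 1.01 (adjusted p = 0.139 and 0.140).

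Collecting duct markers, of the tubule segment in which Edn1 and Ednrb are known to act on sodium reabsorption, had 0 of 11 past the threshold by limma (4 at an unadjusted p under 0.05), and their score was -0.168 to 0.245 at 28 weeks and -0.243 to 0.403 at 8 weeks. None of the 11 passed without replicate 7 either. Aqp3, a basolateral water channel gene, and Fxyd4, a regulator gene of the sodium pump, had log2 differences of -1.03 and 0.855 (adjusted p = 0.112 and 0.170). Of 10 thick limb and macula densa markers 1 rose and 0 fell, beside 0.446% and 0.522% of all probes. The gene that rose was Ptgs2, the cyclooxygenase-2 gene known from the macula densa, where Nos1 is also found, at 6.48, 5.81, 6.10 and 6.07 in 28-week replicates 6 to 9 and 4.80, 5.01, 5.21 and 5.16 in 8-week replicates 1 to 4 (2.1-fold, adjusted p = 0.0309). The ages did not overlap in Ptgs2, and among the fits that left out 1 array its call held in the one without replicate 7, with adjusted p up to 0.111. Without replicate 7, 2 of the 10 were higher and 1 lower. With all arrays, 6 of the 10 had an unadjusted limma p under 0.05, beside 15% of all probes. The mean was higher at 28 weeks in 9 of the 10. Egf was lower without overlap (log2 difference -0.85, adjusted p = 0.095), and Pappa2 had a log2 difference of 0.23 (adjusted p = 0.586). The cells behind the Ptgs2 values were not tested. The list score was 0.332 to 0.563 at 28 weeks and -0.152 to 0.074 at 8 weeks.

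Proximal tubule markers had a lower mean at 28 weeks in 12 of 12 genes, with a median log2 difference of -0.32, and 1 fell, the organic anion transporter gene Slc22a6 (1.88-fold, adjusted p = 0.0313). Of 7 podocyte markers 1 fell, Clic3 (1.99-fold, adjusted p = 0.0373), and the score of the list was -0.551 to -0.279 at 28 weeks and -0.291 to 0.296 at 8 weeks. At the threshold 0.522% of all probes fell. An unadjusted limma p under 0.05 was found for 7 of the 12 proximal tubule markers and 2 of the 7 podocyte markers, beside 15% of all probes. Without replicate 7 there were 2 lower proximal tubule markers and 1 lower podocyte marker. Without single arrays the adjusted p reached 0.123 for Slc22a6 and 0.135 for Clic3. Of 11 measured genes that define kidney 0 passed by limma (5 at an unadjusted p under 0.05), and without replicate 7 there was 1, lower at 28 weeks. The smallest p among them were those of Slc12a1 and Pax8, with log2 differences of 0.99 and 0.625 (adjusted p = 0.0916 and 0.0923).

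**Figure D5:**
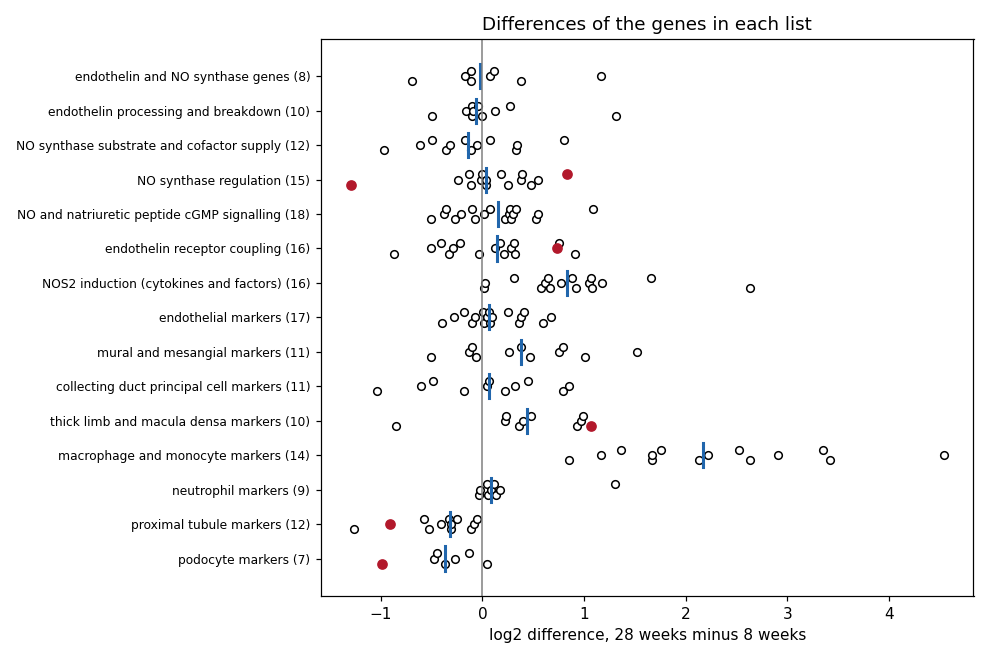
Log2 difference (28 weeks minus 8 weeks, x axis) of every measured gene in each list (rows, number of genes in brackets), with blue bars for medians and filled red points for genes with an adjusted p under 0.05. The medians of the macrophage markers (2.17) and NOS2 induction genes (0.83) stood to the right, and that of the 8 endothelin and NO synthase genes was -0.02.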

How the data were processed

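Kidney RNA of 8 mice was measured on 1-colour Clariom S Mouse arrays, 4 at each age. The deposited values are log2 expression, and RMA is named in the submitters' processing notes, with its version and settings not stated in those notes. A base of 2 for the logarithm was taken as 2 from the range of values, 2.31 to 19.89. RMA gives no detection call. The platform annotation gave 1 symbol to 19572 of 22206 probes, several to 0 and none to 2634. The symbols of the 8 measured members matched RefSeq through the gene identifier.

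Each probe was fitted, 28 weeks minus 8 weeks, with lmFit and eBayes in limma 3.58.1 (R 4.3.3) without a filter. P-values were adjusted by Benjamini-Hochberg over every probe, and the threshold was 0.05. The variance prior had 4.13 degrees of freedom. Ligand and synthase pairs were compared by exact permutation (two-sided, 70 arrangements), adjusted over 6 pairs. The other 2 of 8 intended pairs needed Ednra or Ece2. Named genes were all measured members, for each list those past the threshold (up to 4) or else the 2 with the smallest p, and the 3 nearest profiles of members spanning at least 1 log2 unit, without predicted and clone names. A few further list genes, such as Furin, Mme, Ddah1, Ddah2, Gch1, Gucy1b1, Ifng, Egf, Pappa2, Umod and Lrp2, were named after their values were seen. Members and lists were chosen with earlier results of these data known.

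Alternatives were other normalizations, filters on dim probes, other moderation, array weights, an unmoderated test, 1 row per gene and leaving out arrays. In 3 simulated sets of 22206 probes with 200 changed, limma recovered 3.33% of log2 changes of 0.5, 46% of those of 1 and 98.7% of those of 2, with a mean of 10.7 false calls. Python 3.11.15, pandas 2.3.3 and matplotlib 3.10.9 made tables and figures.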

Additional observations from a re-analysis of the deposited data

Results flagged for a closer look

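Within each group of 4 arrays, the highest and lowest value of every measured gene and of every tested pair was examined for a gap to its nearest neighbour larger than 0.829 of the group's range. Of 28 groups 3 met this, where chance gives about 1 in 20 for independent groups. These groups are not independent, because the pairs are built from the same genes, so the 2 shares cannot be set against each other. Edn1 was 4.63 in 28-week replicate 7, and the next value was 6.21. Edn1 was also apart at 8 weeks, at 5.04 in replicate 2, with the other 3 mice at 4.64 or 4.65, so that a small gap met the criterion because the others were nearly equal. Edn1 minus Edn3 was -1.79 in 28-week replicate 7, and the next value was 0.29. This difference contains the same low Edn1 value of replicate 7.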

How the results depend on the processing

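Single arrays decided the 1 call of the set. Edn1 passed the threshold without 28-week replicate 7 (log2 difference 1.59), and with 8-week replicate 1 left out as well (1.56, adjusted p = 0.00176). The count of members past the threshold was therefore 1 in those fits and 0 in the other 16 settings, an adjusted p under 0.1 among them. With array weights in limma, Edn1 came near the threshold without passing it (log2 difference 1.26, adjusted p = 0.0582). Filters that left out the dimmest probes, below the 33.3 and 50 percentiles, kept 4 and 2 of the 8 members. The count of members with separate ages was 1 of 8 without 28-week replicate 7 (Edn1) or 8 (Ednrb), and 0 otherwise. The ages were separate in 17.3% of all probes without replicate 7 and in 11.1% without replicate 8. Over all probes 215 passed, and 25 to 1237 when 1 array was left out (25 without 28-week replicate 9), 1384 without both arrays, 399 without the dimmer 50% and also with trend and robust moderation, 873 with array weights, and 0 with the unmoderated test, which had the largest adjusted p for Edn1, 0.465. Small differences changed sign. Edn3 was -0.0241 with array weights, -0.04 without both arrays and -0.0033 to 0.26 with 1 array left out. With 1 array left out Nos1 spanned -0.289 to 0.0908, Nos2 -0.215 to 0.0217, Nos3 -0.11 to 0.21, Nos1 minus Nos2 -0.20 to 0.24 and Nos1 minus Nos3 -0.43 to 0.2. Edn1, Ednrb, Edn2 and Ece1 kept their sign in all settings run, Edn1 between 0.96 and 1.59 and Ece1 between -0.90 and -0.50. Calls in lists without replicate 7 were an alternative chosen after seeing the data. The cause of these changes was not tested. No paired analysis was possible because the ages share no replicate numbers. Batches could not be examined, as the sources used here name none.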
